A study of Mus musculus with 29 samples.

Results

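Genes that mark classical and patrolling monocytes were followed across sorted splenic and hepatic macrophages of wild-type and Rnaset2-/- mice. The genes were fixed by name: Ly6c1, Ly6c2, Ccr2, Cx3cr1, Nr4a1, Spn, Treml4 and Ace. Of these 8 symbols, 6 were found among the 23930 genes of the deposited table and are described here. Ly6c1 and Ly6c2 were not analysed here, so whether the Ly6c mRNAs followed the sorting gates is not described.

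The 29 libraries fall into 9 groups by organ, sorted subset and genotype. Ly6C-high and Ly6C-low cells came from the spleen and the liver of wild-type mice and of Rnaset2-/- mice, with 3 libraries each and 4 for Rnaset2-/- spleen Ly6C-low. A further 4 libraries came from wild-type Kupffer cells, the resident macrophages of the liver. Rnaset2-/- mice lack Rnaset2a and Rnaset2b, which encode RNase T2, an enzyme that degrades RNA in endosomes, in every cell, so no group isolates an effect within macrophages. The mice were on the C57BL/6 background, and their ages are not given for these libraries. Both subsets were gated as CD11b(+), Ly6G(-), SiglecF(-) and NK1.1(-), and the Ly6C-low gate also required Fcgr4 protein (CD16.2). For Rnaset2-/- liver, the study's methods write out identical gates for both subsets, so these 2 groups rest on the sample labels. Kupffer cells were gated as F4/80(+), CD11b(int), Tim4(+) and PDCA-1(low). These gates differ in part from the study's sorting methods. Those name no SiglecF, and neither Ly6G nor NK1.1 among the antibodies for liver sorting. They give Kupffer cells as F4/80(+) and CD11b(low), without Tim4. By the study's methods, spleens were minced on glass slides, and T, B, NK and erythroid cells and neutrophils were removed with magnetic beads. Livers instead went through a heated tissue dissociator. In comparisons between organs, organ and preparation therefore cannot be told apart. The labels number the replicates without saying that they are separate animals, so p-values measure the spread between these libraries. That spread was unequal. The mean chi-square per gene between pairs of libraries, which grows with their difference, was 6.17 to 8.75 in wild-type spleen Ly6C-high. It was 24.9 to 211 in Rnaset2-/- liver Ly6C-high. Comparisons with wild-type splenic Ly6C-high cells therefore rest in part on a narrow spread.

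Blood monocytes of the mouse exist in 2 main states. Classical Ly6C-high monocytes leave the bone marrow through the chemokine receptor CCR2, whose ligands include CCL2, and enter inflamed tissue. They can convert into Ly6C-low patrolling monocytes, which crawl along the vessel wall with the help of the fractalkine receptor CX3CR1. The conversion and survival of patrolling cells depend on the nuclear receptor NR4A1. Patrolling cells also carry the sialoglycoprotein CD43 (encoded by Spn), the TREM-like receptor TREML4 and the angiotensin-converting enzyme ACE.

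In mouse GRCm38 coordinates of GENCODE, Ccr2 lies at chr9:124101950-124113557 on the plus strand and Cx3cr1 at chr9:119901616-120069879 on the minus strand. Nr4a1 lies at chr15:101254269-101274795 on the plus strand and Spn at chr7:127132232-127137823 on the minus strand. Treml4 lies at chr17:48264295-48275360 and Ace at chr11:105967945-105989964, both on the plus strand.

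Levels are given in RPM, that is reads scaled to a common library size, from a panel in which each gene is read through an amplicon of its own, so that levels are compared between libraries and not between genes. The libraries held 11175843 to 21167602 reads, and 3 reads corresponded to 0.142 to 0.268 RPM. The lowest value of any of the 6 genes rested on 24 reads (Spn in a Kupffer cell library), so all 6 genes were detected in all 29 libraries. In these bulk samples, fewer cells of a type and less RNA per cell cannot be told apart.

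The genes behind the gates were checked first. Fcgr4 ranged over 769 to 821 RPM in wild-type splenic Ly6C-low libraries against 32.1 to 40.6 RPM in the Ly6C-high ones, and over 398 to 501 against 74.6 to 88.3 RPM in wild-type liver. In Rnaset2-/- mice it ranged over 3231 to 4635 against 112 to 157 RPM in spleen and over 2577 to 4451 against 445 to 1021 RPM in liver. Itgam, which encodes CD11b, lay between 630.0 and 2323 RPM in all monocyte-gated groups and between 93.4 and 131 RPM in Kupffer cells. Timd4, which encodes Tim4, held 166 to 448 RPM in Kupffer cells and 10.04 to 66.8 RPM in Rnaset2-/- liver Ly6C-low libraries, against at most 7.29 RPM in the other 7 groups. Clec4f, a defining Kupffer cell gene, held 1674 to 5470.5 RPM in Kupffer cells and 17.7 to 63.3 RPM in Rnaset2-/- liver Ly6C-low libraries. Xist, expressed from the inactive X chromosome of females, held 0 to 0.154 RPM in the 6 Rnaset2-/- liver libraries and 321 to 949 RPM in the 10 wild-type liver libraries. In liver, genotype and sex therefore cannot be told apart. In spleen, 1 of the 4 Rnaset2-/- Ly6C-low libraries (replicate 2) held 0.781 RPM and all other libraries held 353 RPM or more.

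Some libraries stood apart within their group. Replicate 1 of Rnaset2-/- liver Ly6C-high held 26.2 RPM of Ace, where the other two held 609 and 667 RPM, and was also the lowest of its group in Cx3cr1, Nr4a1, Spn and Treml4. Replicate 1 of Rnaset2-/- spleen Ly6C-low was the lowest of its 4 libraries in Cx3cr1, Nr4a1, Spn, Treml4 and Ace, and its neutrophil marker genes summed to 38883 RPM against 3341 to 22325 RPM in the others. Replicate 1 of Rnaset2-/- liver Ly6C-low held 43.3 RPM of Ccr2 and 47.6 RPM of Ace, where the other two held 8.56 and 6.28 RPM of Ccr2 and 14.9 and 7.58 RPM of Ace.

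To be called, a gene had to differ by >1.5-fold and to pass an adjusted p of 0.05. All adjusted p are from limma unless another tool is named. Log2 fold changes are on the scale of log2(scaled RPM + 1), and the value after ± is then their SE. Between Ly6C-low and Ly6C-high cells, 5 of the 6 genes were called in wild-type spleen, where 33.6% of 10521 tested genes were called. In wild-type liver 4 were called, against 10.1% of 11688 genes. In Rnaset2-/- spleen 3 were called, against 28.1% of 10309 genes, and in Rnaset2-/- liver only Ccr2 was called, against 17.0% of 10895 genes. The plot of the levels by library shows all 29 values of each gene.

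**Figure D1:**
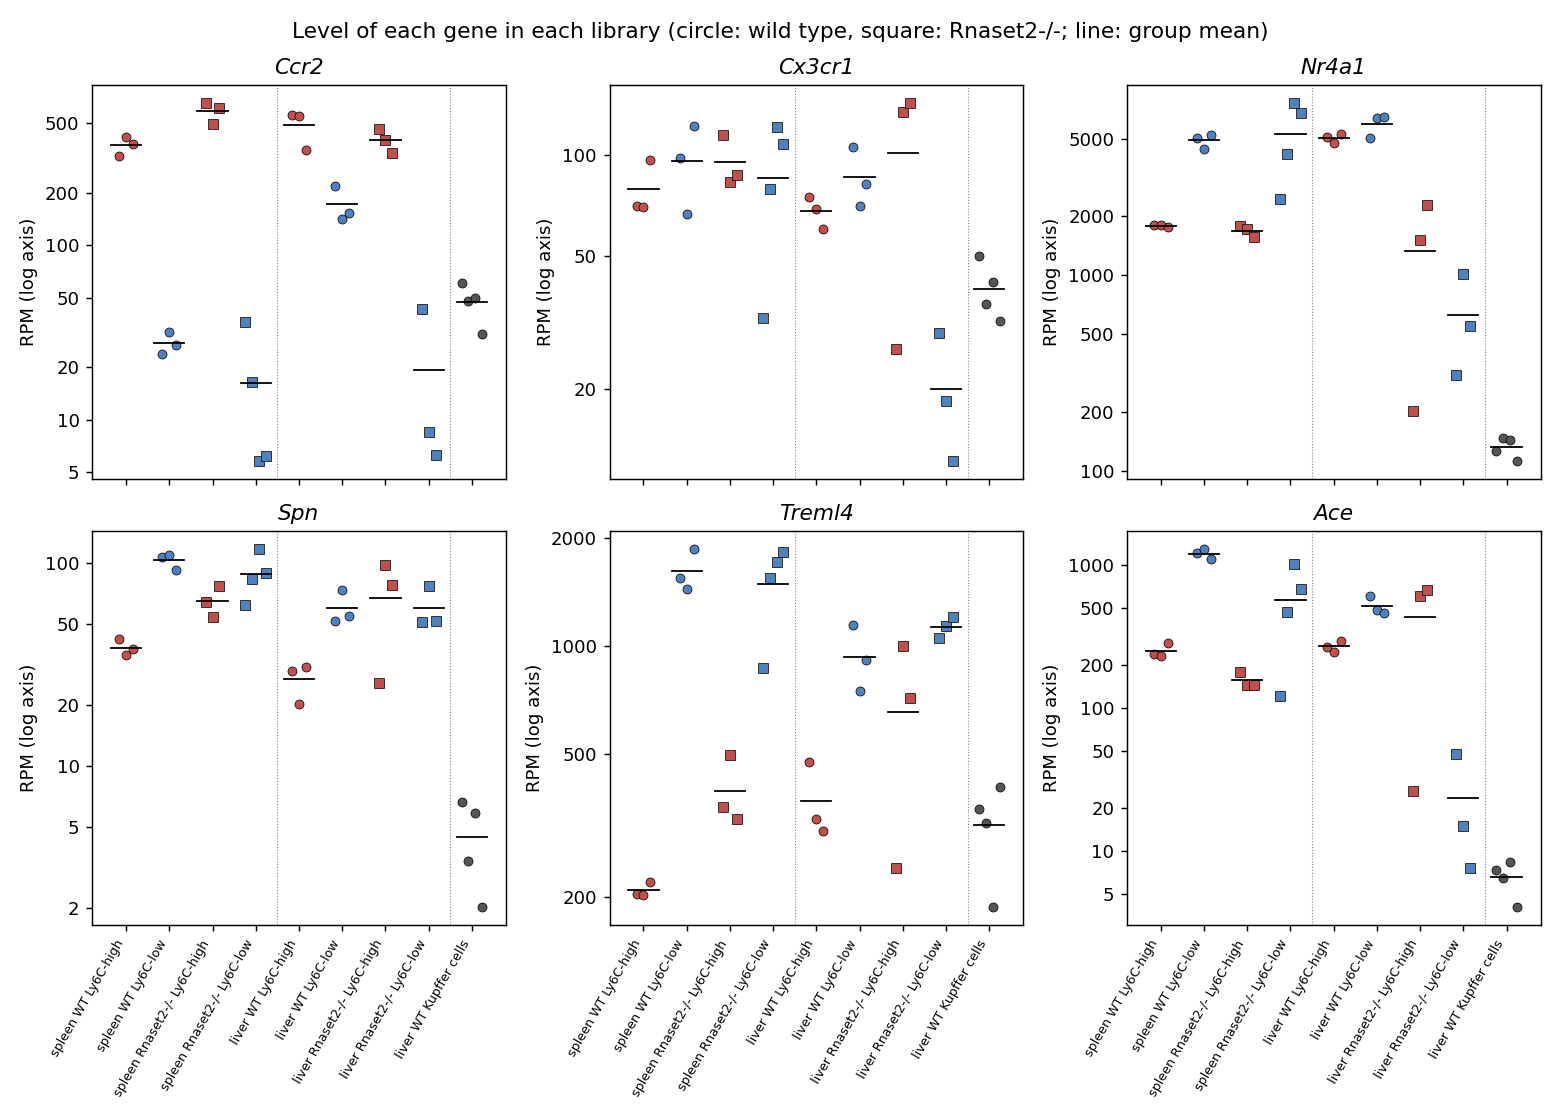
RPM of the 6 genes in each of the 29 libraries on a log axis, by group, with circles for wild-type and squares for Rnaset2-/- libraries, red for Ly6C-high, blue for Ly6C-low and grey for Kupffer cells, and a line at the group mean. Ccr2 was high in the Ly6C-high groups, Spn was lowest in Kupffer cells, and Ace in Rnaset2-/- liver Ly6C-low libraries was at 7.58 to 47.6 RPM.

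Ccr2, the CCL2 receptor of classical monocytes, was higher in Ly6C-high than in Ly6C-low cells in both organs and both genotypes. In wild-type spleen the Ly6C-high libraries held 323, 419.6 and 380.0 RPM and the Ly6C-low libraries 23.8, 31.9 and 26.9 RPM. In Rnaset2-/- spleen the values were 654, 497 and 613 RPM against 36.1, 16.5, 5.82 and 6.20 RPM. In wild-type liver they were 558, 548 and 352 RPM against 219, 142 and 154 RPM, so that the hepatic Ly6C-low libraries of wild-type mice held more Ccr2 than the splenic ones. The hepatic values of Rnaset2-/- mice were 462, 401 and 336 RPM against 43.3, 8.56 and 6.28 RPM, and Kupffer cells held 61.2, 47.8, 49.7 and 31.1 RPM. No Ly6C-low library reached the level of any Ly6C-high library of its own organ and genotype.

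The Ly6C-low to Ly6C-high difference of Ccr2 was -3.57 ± 0.131 (adjusted p = 2.48e-08) on the log2 scale in wild-type spleen and -5.44 ± 0.517 (adjusted p = 0.000356) in Rnaset2-/- spleen. It was -1.6 ± 0.232 (adjusted p = 0.00256) in wild-type liver and -4.61 ± 0.642 (adjusted p = 0.00653) in Rnaset2-/- liver. By the order of the means, the 4 Ly6C-high groups came first, with 588 ± 81.5 RPM in Rnaset2-/- spleen, 486 ± 116 RPM in wild-type liver, 399.9 ± 62.7 RPM in Rnaset2-/- liver and 374 ± 48.4 RPM in wild-type spleen (SD, n = 3 each). Neighbours among these 4 overlapped in their values. Wild-type liver Ly6C-low cells followed with 172 ± 41.6 RPM (SD, n = 3) and overlapped neither the group above nor the Kupffer cells below them. The remaining 4 groups, at mean levels of 16.2 to 47.5 RPM, overlapped from neighbour to neighbour.

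Between the genotypes, splenic Ly6C-high cells of Rnaset2-/- mice held more Ccr2 than those of wild-type mice (log2 fold change 0.77 ± 0.123 (SE), adjusted p = 0.000906). Hepatic Ly6C-low cells of Rnaset2-/- mice held less (log2 fold change -3.58 ± 0.593 (SE), adjusted p = 0.00196), with all 3 libraries below all 3 wild-type libraries. Without replicate 1 of the Rnaset2-/- group this difference was -4.37 (adjusted p = 3.33e-06). Of the 6 genes, 3 were called in the splenic Ly6C-high comparison, against 22.2% of 10398 tested genes, and 4 in the hepatic Ly6C-low comparison, against 42.7% of 10808 genes. The other two genotype comparisons called 0 of 6 in splenic Ly6C-low cells, against 8.35% of 10295 genes, and 1 of 6 in hepatic Ly6C-high cells, against 30.6% of 10957 genes. In splenic Ly6C-low cells, limma gave an unadjusted p of 0.0507 or more for each of the 6. In one fit of all 29 libraries, the 3 splenic Ly6C-high calls were lost (adjusted p = 0.0671 to 0.397). Without replicate 1 of Rnaset2-/- spleen Ly6C-low, Ccr2 was called in splenic Ly6C-low cells, at -1.54 (adjusted p = 0.0158). With DESeq2 and edgeR on all libraries, 0 of the 6 were called in that comparison too.

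Markers of other cells moved with the splenic Ly6C-high comparison. All 7 NK cell genes and all 6 T cell genes in the table were lower in Rnaset2-/- libraries, with summed levels of 19.1 to 50.9 against 422 to 461 RPM for the NK list and 11.5 to 32.2 against 180.4 to 195 RPM for the T cell list. Of the 10 neutrophil genes 5 were higher, at a sum of 32714 to 57476 against 30315 to 32557 RPM. All 3 tested B and plasma cell genes, at a sum of 108.5 to 147 against 617 to 699.8 RPM, and both tested erythroid genes, at 2.69 to 9.21 against 103 to 107 RPM, were lower. Their part in the result for Ccr2, Spn and Treml4 was not tested.

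The ligand gene Ccl2 moved with the groups as well. It held 334 to 473 RPM in wild-type hepatic Ly6C-high cells and 11.9 to 32.8 RPM in those of Rnaset2-/- mice (log2 fold change -4.71, adjusted p = 0.000434). Of the 5 ligand genes, 2 of 4 tested were lower in Rnaset2-/- hepatic Ly6C-high cells and 4 of 5 in hepatic Ly6C-low cells, with none higher in either. Of all tested genes, 30.6% and 42.7% were called in these comparisons. In hepatic Ly6C-low cells Ccl2 fell by 4.42 on the log2 scale (adjusted p = 0.000554).

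Cx3cr1, the fractalkine receptor gene, did not pass the test between Ly6C-low and Ly6C-high cells in any organ or genotype. In wild-type spleen the Ly6C-high libraries held 70.5, 69.7 and 96.6 RPM and the Ly6C-low libraries 98.0, 66.8 and 122 RPM. In wild-type liver they held 75.1, 68.9 and 60.02 RPM and 106, 70.5 and 82.0 RPM. The 2 subsets overlapped in both organs. The differences of Ly6C-low from Ly6C-high cells on the log2 scale were 0.39, 95% CI -0.05 to 0.84, adjusted p = 0.124 in wild-type spleen and 0.21, 95% CI -0.22 to 0.64, adjusted p = 0.591 in wild-type liver, so an increase of the size seen for Treml4 lay outside both intervals. Without replicate 2 of wild-type spleen Ly6C-low, Cx3cr1 was called in spleen at 0.63 (adjusted p = 0.000828).

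In Rnaset2-/- spleen the Cx3cr1 levels were 114, 82.9 and 87.2 RPM in Ly6C-high and 32.7, 79.1, 121 and 108 RPM in Ly6C-low libraries. In Rnaset2-/- liver they were 26.4, 134 and 143 RPM in Ly6C-high and 29.6, 18.5 and 12.2 RPM in Ly6C-low libraries, and Kupffer cells held 49.8, 36.0, 41.7 and 32.0 RPM. The hepatic Ly6C-low cells of Rnaset2-/- mice were thus the lowest group, below all wild-type Ly6C-low libraries (log2 fold change -2.15 ± 0.295 (SE), adjusted p = 0.000804). Against Kupffer cells the difference was -0.51 ± 0.276 (adjusted p = 0.155) and was not called. The difference within Rnaset2-/- liver was -1.86 ± 0.599 (adjusted p = 0.0727). It was called at -2.56 (adjusted p = 0.0051) without replicate 1 of the Ly6C-high group, at -2.86 (adjusted p = 0.000293) without replicate 1 of both groups and at -1.86 (adjusted p = 0.0402) with the replicate number as a block. Between the highest and the lowest group mean Cx3cr1 spanned 5.03-fold, the least of the 6 genes.

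The log2 difference between Cx3cr1 and Ccr2 was taken within each library, where no scaling between libraries enters. It was read only between groups, since the 2 amplicons need not amplify alike. In wild-type spleen it went from -2.24 ± 0.31 in Ly6C-high to 1.73 ± 0.60 in Ly6C-low cells, and in wild-type liver from -2.79 ± 0.23 to -0.98 ± 0.07 (SD, n = 3 each). In Rnaset2-/- spleen it went from -2.63 ± 0.15 (n = 3) to 2.53 ± 1.98 (n = 4), and in Rnaset2-/- liver from -2.29 ± 1.55 to 0.45 ± 0.86 (SD, n = 3 each). In all 4 pairs every Ly6C-low library lay above every Ly6C-high library. Ccr2 alone also separated the subsets in all 4 pairs, so this separation does not show a rise of Cx3cr1. In Rnaset2-/- liver the difference rose although the Cx3cr1 mean was 101 RPM in Ly6C-high and 20.1 RPM in Ly6C-low cells. Kupffer cells lay at -0.22 ± 0.19 (SD, n = 4).

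**Figure D2:**
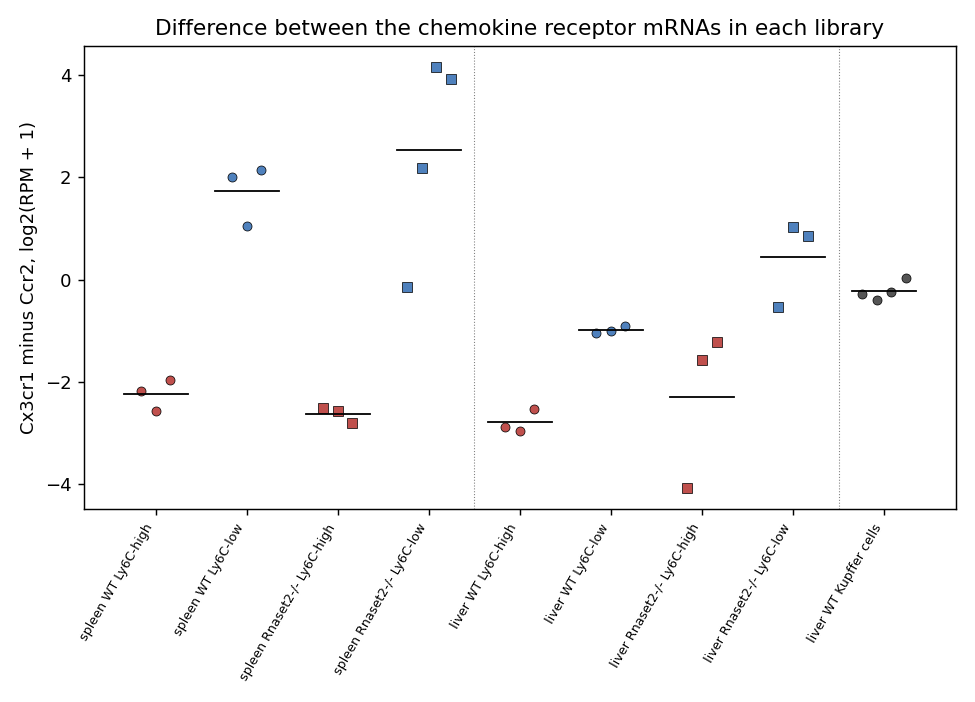
Difference between Cx3cr1 and Ccr2 in log2(RPM + 1) within each of the 29 libraries, by group, with circles for wild-type and squares for Rnaset2-/- libraries and a line at the group mean. Ly6C-low libraries (blue) lay above the Ly6C-high libraries (red) of their organ and genotype, and replicate 1 of Rnaset2-/- spleen Ly6C-low was at -0.14, where the other 3 reached up to 4.16.

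Nr4a1 encodes an orphan nuclear receptor that patrolling monocytes require. It is also an immediate early gene, one of those transcribed within minutes of a stimulus, through response elements in its promoter. The promoter is shown because Nr4a1 is such a gene. It differed together with other immediate early genes in some of the comparisons below and not in others. The RefSeq sequence of the 250 bases before an annotated transcript start (GRCm38.p6, chr15:101266596-101266845, plus strand) follows. This window lies within the GENCODE span of the gene given above and not before it. Each TGCGTCA, a match to letters known as CRE-like or AP-1-like, is in capitals.
Nr4a1 promoter: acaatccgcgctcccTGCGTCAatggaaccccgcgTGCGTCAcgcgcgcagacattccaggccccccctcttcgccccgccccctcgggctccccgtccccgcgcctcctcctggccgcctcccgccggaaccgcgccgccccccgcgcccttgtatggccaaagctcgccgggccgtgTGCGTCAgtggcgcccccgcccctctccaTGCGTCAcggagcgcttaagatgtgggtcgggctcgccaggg
These letters occurred 4 times in it. On either strand, they occurred at least once in 574 of 32851 windows of this length (1.75%), and at least 4 times in 1 window (0.00304%), that of Nr4a1. They were not found in the windows of the other 5 genes. The full cyclic AMP response element TGACGTCA, present in 1.55% of all windows, and the NR4A1 response element AAAGGTCA, present in 1.34%, were searched on both strands and found in none of the windows of the 6 genes. A match is a description of letters and not of a bound site.

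In spleen, Nr4a1 was higher in Ly6C-low than in Ly6C-high cells. Wild-type Ly6C-high libraries held 1804, 1797 and 1765 RPM and Ly6C-low libraries 5028, 4421 and 5241 RPM. Rnaset2-/- Ly6C-high libraries held 1781, 1713 and 1569.7 RPM and Ly6C-low libraries 2449, 4189, 7614 and 6751 RPM. The subsets did not overlap in either genotype. The difference was 1.6 ± 0.0872 (adjusted p = 2.65e-07) in wild-type and 1.52 ± 0.391 (adjusted p = 0.0193) in Rnaset2-/- spleen. The second lost its call when any 1 of the 3 Rnaset2-/- Ly6C-high libraries was left out, at 1.45 to 1.55 with an adjusted p of 0.0553 to 0.0753. Between the genotypes Nr4a1 was not called in either splenic subset, with differences of 0.03, 95% CI -0.2 to 0.26, adjusted p = 0.828 in Ly6C-high and -0.02, 95% CI -0.92 to 0.88, adjusted p = 0.981 in Ly6C-low cells.

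In wild-type liver, every library of both subsets lay within or above the Nr4a1 range of wild-type splenic Ly6C-low cells. The Ly6C-high libraries held 5078, 4717 and 5277 RPM and the Ly6C-low libraries 5025, 6375 and 6413 RPM, and the difference was 0.12, 95% CI -0.26 to 0.51, adjusted p = 0.761. Hepatic Ly6C-high cells thus stood above splenic Ly6C-high cells (log2 fold change 1.77 ± 0.12 (SE), adjusted p = 4.88e-06), with no overlap, whereas the Ly6C-low cells of the 2 organs differed by 0.32 ± 0.166 (adjusted p = 0.15) and were not called apart. Of the 6 genes, 3 were called between wild-type liver and spleen in Ly6C-high cells, against 37.8% of 10681 tested genes, and 4 in Ly6C-low cells, against 34.1% of 10611 genes.

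In Rnaset2-/- liver, Nr4a1 was lower in both subsets than in wild-type liver. Ly6C-high libraries held 203, 1516 and 2281 RPM and Ly6C-low libraries 310.4, 1008 and 549 RPM, all below the lowest wild-type hepatic value. The differences from wild-type cells were -2.81 ± 0.742 (adjusted p = 0.0245) in Ly6C-high and -3.45 ± 0.387 (adjusted p = 0.000299) in Ly6C-low cells. The first lost its call when any 1 of the 3 wild-type Ly6C-high libraries was left out, at -2.90 to -2.76 with an adjusted p of 0.0651 to 0.0835, while without Rnaset2-/- replicate 1 it was -1.81 (adjusted p = 0.000118). Without that library all 6 genes were called there, against 37.1% of 10459 genes, with Cx3cr1 turned from -0.08 ± 0.527 (adjusted p = 0.925) to 0.65 (adjusted p = 0.0124). Kupffer cells held the least, 126, 148, 144 and 112 RPM.

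The other immediate early genes gave the background for these differences. Of 22 such genes in the table, 13 of 21 tested were higher and none was lower in wild-type hepatic than in splenic Ly6C-high cells, with a median log2 fold change of 1.55 beside -0.04 over all tested genes. Among Ly6C-low cells 15 of 22 were higher and none lower, although Nr4a1 was not called there. Between the genotypes in liver, 18 of 21 were lower in Rnaset2-/- Ly6C-high cells (median -2.20) and 21 of 21 in Ly6C-low cells (median -3.66). Fos, a subunit of AP-1, held 5993 to 7592 RPM in wild-type and 337 to 635 RPM in Rnaset2-/- hepatic Ly6C-high cells. In Rnaset2-/- splenic Ly6C-high cells 15 of 21 were lower and none was higher (median -0.80), while Nr4a1 was not called, and between the subsets of wild-type spleen, where Nr4a1 was called, 2 were higher and 4 lower of 21. Between the subsets of Rnaset2-/- spleen, where Nr4a1 was called as well, 10 were higher in Ly6C-low cells and 1 lower of 20 (median 0.62). Hspa1b, a heat shock gene of this list, was higher in hepatic Ly6C-high cells at 6.81 on the log2 scale (adjusted p = 5.27e-07). Of all tested genes, 37.8% were called between organs in Ly6C-high and 34.1% in Ly6C-low cells. By genotype, 30.6% were called in hepatic Ly6C-high, 42.7% in hepatic Ly6C-low and 22.2% in splenic Ly6C-high cells. Between splenic subsets the shares were 33.6% in wild-type and 28.1% in Rnaset2-/- mice.

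The plot of Nr4a1 against the other immediate early genes sets the mean log2(RPM + 1) of these 22 genes beside Nr4a1 in each library. Wild-type hepatic libraries lay at a mean of 8.18 to 8.69 with Nr4a1 at 12.2 to 12.65. Splenic Ly6C-low libraries of both genotypes reached Nr4a1 levels of 11.26 to 12.89 at a mean of 6.73 to 7.05, below the 7.10 to 7.15 of wild-type splenic Ly6C-high libraries, whose Nr4a1 was 10.79 to 10.82. In wild-type spleen, Nr4a1 thus differed between subsets whose means of the other genes lay between 6.94 and 7.15. Both values were higher in Ly6C-low libraries of Rnaset2-/- spleen, whose means were 6.73 to 7.00 against 6.08 to 6.38 in Ly6C-high libraries. Rnaset2-/- hepatic Ly6C-low libraries had the lowest means, 4.66 to 4.84, while Kupffer cells, at 5.59 to 6.01, had the lowest Nr4a1, 6.82 to 7.22.

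**Figure D3:**
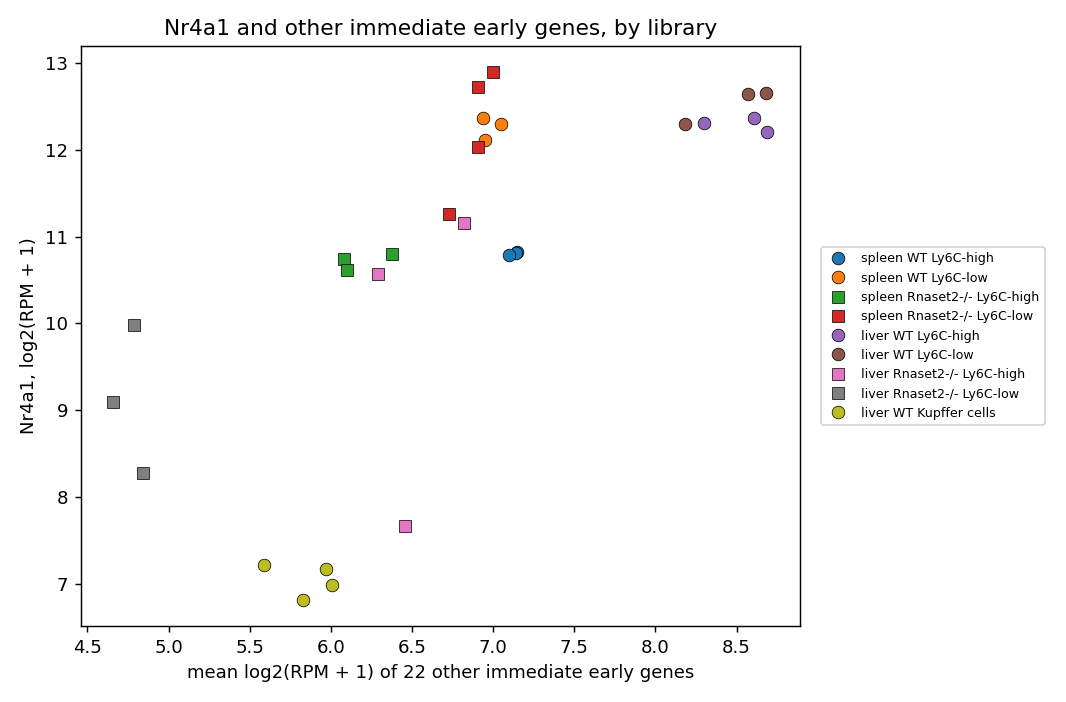
Nr4a1 in log2(RPM + 1) against the mean log2(RPM + 1) of 22 other immediate early genes in each of the 29 libraries, coloured by group, with circles for wild type and squares for Rnaset2-/-. In wild-type spleen Ly6C-low libraries lay above Ly6C-high libraries at means of 6.94 to 7.15, in Rnaset2-/- spleen both values were higher in Ly6C-low libraries, and wild-type hepatic libraries lay farthest to the right, at 8.18 to 8.69.

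Spn encodes CD43, a sialylated surface glycoprotein of patrolling monocytes. Wild-type splenic Ly6C-high libraries held 42.2, 35.3 and 37.6 RPM and Ly6C-low libraries 107, 110.3 and 92.7 RPM. In wild-type liver the values were 29.5, 20.2 and 30.9 RPM and 51.8, 73.7 and 54.7 RPM. Spn was higher in Ly6C-low cells in both organs, with differences of 1.55 ± 0.108 (adjusted p = 1.28e-06) in spleen and 1.03 ± 0.223 (adjusted p = 0.0193) in liver. In liver the call was lost without replicate 3 of the Ly6C-low group (1.08, adjusted p = 0.0621) and with the replicate block (1.03, adjusted p = 0.0522).

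In Rnaset2-/- mice the splenic Spn values were 64.6, 54.2 and 77.4 RPM in Ly6C-high and 62.2, 83.5, 117 and 89.6 RPM in Ly6C-low libraries. The hepatic ones were 25.6, 98.2 and 77.8 RPM and 51.5, 77.5 and 51.8 RPM. The subsets overlapped in both organs, with differences of 0.42 ± 0.23 (adjusted p = 0.193) in spleen and 0.19 ± 0.426 (adjusted p = 0.785) in liver. Splenic Ly6C-high cells of Rnaset2-/- mice held more Spn than those of wild-type mice (log2 fold change 0.86 ± 0.131 (SE), adjusted p = 0.000698), with no overlap. The effect of genotype on Spn differed between the splenic subsets, by -1.13 ± 0.283 (adjusted p = 0.0194) on the log2 scale, in a comparison where 2 of the 6 genes were called against 14.7% of 10838 genes. This call was lost without replicate 2 or replicate 3 of wild-type spleen Ly6C-high (-1.07 and -1.11, adjusted p = 0.0524 and 0.0502). Kupffer cells held 6.63, 3.41, 5.85 and 2.01 RPM, apart from all other groups, and were the lowest.

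Treml4 encodes a receptor of the TREM family on patrolling monocytes and some other myeloid cells. In wild-type spleen it had the largest rise of the 6 genes in Ly6C-low cells, from 204, 202 and 221 RPM to 1548, 1442 and 1867 RPM (log2 fold change 3.09 ± 0.101 (SE), adjusted p = 1.62e-08). In Rnaset2-/- spleen it rose from 356, 498 and 329 RPM to 872, 1548, 1715 and 1828 RPM (log2 fold change 1.9 ± 0.299 (SE), adjusted p = 0.00301). In wild-type liver it rose from 474, 329 and 304 RPM to 1144, 749 and 915 RPM (log2 fold change 1.23 ± 0.232 (SE), adjusted p = 0.0103). None of these 3 pairs of groups overlapped. Rnaset2-/- hepatic Ly6C-high libraries held 241, 1003 and 719 RPM and the Ly6C-low libraries 1057, 1139 and 1204 RPM, without overlap, at 1.18 ± 0.448 (adjusted p = 0.112), and the difference was called with the replicate block (1.18, adjusted p = 0.0357). Kupffer cells held 352, 322, 187 and 406 RPM. Every group overlapped its neighbour in the order of Treml4 means.

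Like Spn, Treml4 was higher in splenic Ly6C-high cells of Rnaset2-/- than of wild-type mice (log2 fold change 1.01 ± 0.152 (SE), adjusted p = 0.000641). In splenic Ly6C-low cells the genotypes differed by -0.16 ± 0.282 (adjusted p = 0.738), and the difference between these 2 effects was -1.19 ± 0.362 (adjusted p = 0.042). That call was lost in 9 of 13 fits that left out 1 library, at -1.27 to -0.99 with an adjusted p of up to 0.107. In hepatic Ly6C-low cells Treml4 and Spn were the 2 genes of the 6 that were not called between genotypes, at 0.25, 95% CI -0.2 to 0.71, adjusted p = 0.329 for Treml4 and -0.05, 95% CI -0.56 to 0.47, adjusted p = 0.888 for Spn.

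Ace encodes angiotensin-converting enzyme, a surface peptidase carried by patrolling monocytes. In wild-type spleen the Ly6C-high libraries held 240.4, 230.1 and 285 RPM and the Ly6C-low libraries 1218, 1297 and 1099 RPM. In wild-type liver they held 266, 249 and 295 RPM and 607, 489 and 459 RPM. Ace was higher in Ly6C-low cells in both organs without overlap, at 2.4 ± 0.0978 (adjusted p = 4.64e-08) in spleen and 0.82 ± 0.163 (adjusted p = 0.0131) in liver. Splenic Ly6C-low cells of wild-type mice were the highest group and overlapped no other.

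In Rnaset2-/- spleen, Ace was 179, 146 and 145 RPM in Ly6C-high and 122, 469, 1012 and 679 RPM in Ly6C-low libraries, and the subsets overlapped through replicate 1 of the Ly6C-low group. The difference was 1.52 ± 0.636 (adjusted p = 0.0964). Without that replicate it was called at 2.17 (adjusted p = 0.000251). Between the genotypes, splenic Ly6C-high cells differed by -0.56 ± 0.113 (adjusted p = 0.00327), below the 1.5-fold threshold, with every Rnaset2-/- library below every wild-type library. It was called, at -0.65 to -0.59, without wild-type replicate 1, wild-type replicate 2 or Rnaset2-/- replicate 1. In splenic Ly6C-low cells the genotypes differed by -1.42 ± 0.628 (adjusted p = 0.169), which was not called. Every Rnaset2-/- library there was also below every wild-type library, at mean levels of 570 against 1200 RPM. With single libraries left out, this difference ranged from -1.83 to -0.77 and stayed uncalled.

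In Rnaset2-/- liver, Ace was 26.2, 609 and 667 RPM in Ly6C-high and 47.6, 14.9 and 7.58 RPM in Ly6C-low libraries. The Ly6C-low libraries lay below those of wild-type mice (log2 fold change -4.82 ± 0.527 (SE), adjusted p = 0.000261), and without Rnaset2-/- replicate 1 the difference was -5.49 (adjusted p = 2.02e-06). Between the subsets the difference was -3.41 ± 1.21 (adjusted p = 0.0942) and was not called, with overlap through replicate 1 of the Ly6C-high group. Without that library the difference was -4.84 (adjusted p = 0.00532), and without replicate 1 of both groups it was -5.52 (adjusted p = 8.5e-05). In hepatic Ly6C-high cells the genotypes differed by -0.6 ± 1.04 (adjusted p = 0.691), and without Rnaset2-/- replicate 1 the sign turned, to 0.86 (adjusted p = 0.00254). Kupffer cells held 7.29, 6.41, 8.38 and 4.03 RPM, the lowest level of any group, which overlapped that of Rnaset2-/- hepatic Ly6C-low cells.

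**Figure D4:**
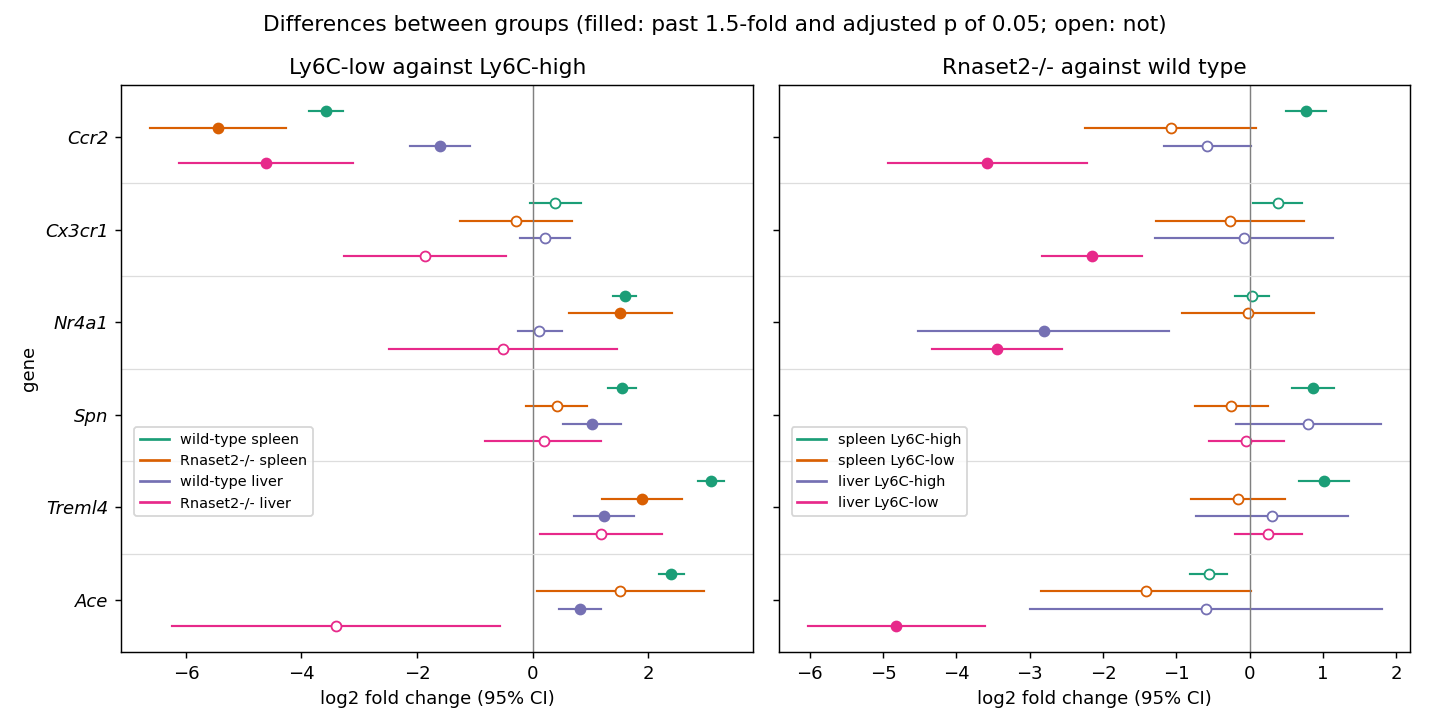
Log2 fold changes of the 6 genes with 95% confidence intervals, for Ly6C-low against Ly6C-high cells (left) and for Rnaset2-/- against wild-type cells (right), with filled points where a gene passed 1.5-fold and an adjusted p of 0.05 in limma. Ccr2 lay to the left in all 4 subset comparisons, and hepatic Ly6C-low cells separated Ccr2, Cx3cr1, Nr4a1 and Ace from Spn and Treml4 between the genotypes.

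The larger lists of subset genes were counted beside the 6. Of 18 further patrolling monocyte genes in the table, 18 of 18 tested were higher in Ly6C-low cells of wild-type spleen (median log2 fold change 2.72) and 15 of 18 in wild-type liver (1.49), none lower in either. In Rnaset2-/- mice, 15 of 17 were higher in spleen (2.01) and 3 of 17 in liver (0.69), none lower in either. Of all tested genes, 33.6% were called in wild-type spleen, 10.1% in wild-type liver, 28.1% in Rnaset2-/- spleen and 17.0% in Rnaset2-/- liver. The 3 of 17 in Rnaset2-/- liver is near that share. Cd300e, an activating receptor, was among the patrolling genes that rose in all 4 comparisons, at 4.31 on the log2 scale in wild-type liver (adjusted p = 7.91e-05) and 2.54 in Rnaset2-/- liver (adjusted p = 0.0483). Of 17 further classical monocyte genes, 13, 14, 10 and 12 were lower in Ly6C-low cells of wild-type spleen, wild-type liver, Rnaset2-/- spleen and Rnaset2-/- liver, with 1, 0, 1 and 0 higher. F13a1, which encodes a coagulation factor subunit, fell by 5.74 on the log2 scale in wild-type spleen (adjusted p = 3.32e-07). The exception in both spleens was Clec4e, a pattern recognition receptor, at 1.87 (adjusted p = 1.55e-07) in wild-type cells.

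Markers of other cells moved with the subsets too. All 10 neutrophil genes were lower in splenic Ly6C-low cells of wild-type mice, with a summed level of 1049.9 to 2389 against 30315 to 32557 RPM, and 7 of 7 tested in liver, at 2.57 to 8.45 against 237 to 2338 RPM, with 1 of the 10 at 0 in every hepatic Ly6C-low library. In wild-type hepatic Ly6C-low cells 5 of 6 tested Kupffer cell genes were higher, although the sum of the list was 430.2 to 772 against 547 to 790.2 RPM. In wild-type spleen 7 of 7 NK cell genes, at 68.7 to 114 against 422 to 461 RPM, and 6 of 6 T cell genes, at 15.0 to 26.1 against 180.4 to 195 RPM, were lower in Ly6C-low cells. Of the lists in Rnaset2-/- spleen, 4 of 4 tested erythroid genes, at 54.0 to 944 against 2.69 to 9.21 RPM, and 3 of 3 B and plasma cell genes, at 208 to 1385 against 108.5 to 147 RPM, were higher. In Rnaset2-/- liver 6 of 6 tested neutrophil genes, at 1.61 to 11.8 against 224 to 1664 RPM, and 4 of 6 NK cell genes, at 5.6 to 18.6 against 55.3 to 347 RPM, were lower. Their part in the results for the 6 genes was not tested.

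Among regulators of monocyte conversion, Cebpb, a transcription factor that acts upstream of Nr4a1 in monocytes, was higher in splenic Ly6C-low cells of both genotypes, at 1.52 (adjusted p = 0.000184) in wild-type and 1.49 (adjusted p = 0.00774) in Rnaset2-/- cells. In Rnaset2-/- liver it was lower in Ly6C-low cells, at -1.5 (adjusted p = 0.00647). Between the genotypes, 11 of 18 regulators were lower in hepatic Ly6C-low cells of Rnaset2-/- mice and 8 of 18 in Ly6C-high cells, with none higher in either. Of all tested genes, 42.7% and 30.6% were called in these comparisons. Egr1, an immediate early transcription factor, fell by 5.79 and 5.17 on the log2 scale (adjusted p = 2.08e-06 and 8.85e-05). Klf4, a factor that patrolling monocytes require, fell by 4.19 in the Ly6C-low cells (adjusted p = 1.26e-05).

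Hepatic Ly6C-low cells of Rnaset2-/- mice were set beside wild-type Kupffer cells. All 6 genes were lower in Kupffer cells than in wild-type hepatic Ly6C-low cells, where 50.0% of 12515 genes were called. Ace and Nr4a1 had the largest differences, -6.69 ± 0.212 (adjusted p = 1.93e-08) and -6.07 ± 0.175 (adjusted p = 1.93e-08), and Spn followed at -4.09 ± 0.319 (adjusted p = 3.56e-06). Kupffer cell libraries also held more RNA of genes listed as markers of other liver cells. Their sinusoidal endothelial genes summed to 3154 to 6402 RPM, against 132 to 328 RPM in wild-type and 277 to 1341 RPM in Rnaset2-/- Ly6C-low libraries. This list shares Cdh5 with the Kupffer cell list. Hepatocyte genes summed to 1072 to 3648 RPM, against 46.4 to 103 and 10.1 to 52.6 RPM. The part of these cells in the results against Kupffer cells was not tested. Between Rnaset2-/- hepatic Ly6C-low cells and Kupffer cells, 4 of the 6 were called, all higher in the former, against 45.6% of 12127 genes. These were Spn (log2 fold change 4.03 ± 0.33 (SE), adjusted p = 4.62e-05), Nr4a1 (log2 fold change 2.6 ± 0.329 (SE), adjusted p = 0.000346), Treml4 (log2 fold change 2.42 ± 0.276 (SE), adjusted p = 0.000219) and Ace (log2 fold change 1.83 ± 0.502 (SE), adjusted p = 0.0145). Ccr2 and Cx3cr1 were not called, at -1.2 ± 0.538 (adjusted p = 0.0929) and -0.51 ± 0.276 (adjusted p = 0.155), and both were called lower than in Kupffer cells without replicate 1 of the Rnaset2-/- group, at -1.98 (adjusted p = 0.000755) and -0.79 (adjusted p = 0.0305). For Spn and Treml4 these cells were called apart from Kupffer cells and not from wild-type Ly6C-low cells, with all libraries the reverse held for Ccr2 and Cx3cr1, and Nr4a1 and Ace were called apart from both.

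In this group, 5 of 7 Kupffer cell genes were higher than in wild-type Ly6C-low cells, with a summed level of 6379 to 11257 against 430.2 to 772 RPM and 6763 to 18723 RPM in Kupffer cells. None of the 7 was at 0, and Clec4f was at 17.7 to 63.3 RPM. T cell genes (5 of 5 tested higher, at 38.4 to 122 against 1.49 to 2.79 RPM), B and plasma cell genes (4 of 5, at 108.5 to 386 against 26.5 to 32.7 RPM) and erythroid genes (4 of 4, at 53.8 to 149 against 0.911 to 4.71 RPM, 2 of the 5 being at 0 in all wild-type libraries) moved with the genotype as well. In hepatic Ly6C-high cells, 8 of 8 sinusoidal endothelial genes were higher in Rnaset2-/- libraries, at 334 to 2123 against 44.9 to 87.1 RPM, and 6 of 6 T cell genes, at 159 to 387 against 4.40 to 11.8 RPM. Higher there as well were 5 of 7 NK cell, 5 of 6 B and plasma cell, 4 of 4 erythroid and 4 of 6 Kupffer cell genes. Cdh5 counts in both the sinusoidal endothelial and the Kupffer cell list. Their part in the results was not tested.

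Whether an effect of genotype differed between organs or subsets was tested as an interaction. By Xist, genotype went with sex in liver but, apart from 1 Ly6C-low library, not in spleen. Within liver and between organs, effects of genotype and of sex therefore cannot be told apart. In Ly6C-low cells the effect in liver minus that in spleen was -3.42 ± 0.604 (adjusted p = 0.00133) for Nr4a1 and -3.39 ± 0.924 (adjusted p = 0.0161) for Ace, and 4 of the 6 genes were called, against 26.8% of 11308 genes. Ccr2 (-2.5 ± 0.867 (adjusted p = 0.0474)) and Cx3cr1 (-1.87 ± 0.596 (adjusted p = 0.0333)) were the other two, and each lost its call in 10 of 13 fits that left out 1 library. In Ly6C-high cells 2 were called, against 33.5% of 11398 genes. They were Ccr2 (-1.31 ± 0.293 (adjusted p = 0.00474)) and Nr4a1 (-2.81 ± 0.826 (adjusted p = 0.02)), the latter at -1.82 (adjusted p = 2.01e-05) without replicate 1 of Rnaset2-/- liver Ly6C-high. Within liver, Ccr2 was called between subsets (-2.99 ± 0.724 (adjusted p = 0.0229)), against 10.3% of 12626 genes, and this was lost in 4 of 12 fits that left out 1 library, at -3.04 to -2.65 with an adjusted p of 0.0513 to 0.0606. Without replicate 1 of both Rnaset2-/- liver groups, 5 of the 6 were called within liver, against 21.3% of 12444 genes, Ace at -6.32 (adjusted p = 3.06e-07).

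Between the organs, wild-type hepatic Ly6C-low cells held more Ccr2 than splenic ones (log2 fold change 2.62 ± 0.169 (SE), adjusted p = 3.99e-06) and less Ace (log2 fold change -1.18 ± 0.127 (SE), adjusted p = 9.78e-05), Treml4 (log2 fold change -0.76 ± 0.161 (SE), adjusted p = 0.00422) and Spn (log2 fold change -0.74 ± 0.165 (SE), adjusted p = 0.00526). The libraries of the organs did not overlap for these genes, in a comparison where 34.1% of 10611 tested genes were called. The share of all genes without overlap was not counted. In Ly6C-high cells, Treml4 was higher in liver (log2 fold change 1.07 ± 0.164 (SE), adjusted p = 0.000621). Ccr2 was called higher there as well (log2 fold change 0.63 ± 0.176 (SE), adjusted p = 0.0148), but the libraries overlapped and the call was lost in 4 of 6 fits that left out 1 library, at 0.51 to 0.62, and with RPM as deposited (0.35, adjusted p = 0.13). In the same comparisons 7 of 8 sinusoidal endothelial genes were higher in hepatic Ly6C-high cells, at 44.9 to 87.1 against 5.55 to 8.05 RPM with 1 gene at 0 in all splenic libraries, and 6 of 6 T cell genes were lower, at 4.40 to 11.8 against 180.4 to 195 RPM. Of the neutrophil genes 8 of 10 were lower there, at 237 to 2338 against 30315 to 32557 RPM. In hepatic Ly6C-low cells 8 of 8 sinusoidal endothelial genes were higher, at 132 to 328 against 1.58 to 5.24 RPM with 1 gene at 0 in all splenic libraries, and 9 of 9 tested neutrophil genes were lower, at 2.57 to 8.45 against 1049.9 to 2389 RPM. Conventional dendritic cell genes summed to 244 to 309 RPM in these hepatic libraries against 34.3 to 47.9 RPM in the splenic ones. Their part in the results was not tested.

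The genes whose group means followed each of the 6 most closely were taken from 9677 genes with at least 10 RPM in some group, by Pearson correlation of log2(RPM + 1) over the 9 groups. For Treml4 they were Adgre4 (0.980), a macrophage adhesion receptor, Pparg (0.980), a lipid-sensing nuclear receptor, and Dusp16 (0.978), a MAP kinase phosphatase. For Ace they were Cyp2ab1 (0.988), Arhgef10l (0.976) and Cebpb (0.974). For Nr4a1 they were Plagl2 (0.977), Pde4b (0.964), which encodes a cyclic AMP phosphodiesterase, and LOC73899 (0.954). For Spn they were Epha4 (0.974), Fgr (0.972), which encodes a Src family kinase, and Sash3 (0.968). Ccr2 was followed by Fdft1 (0.975), Mrpl30 (0.970) and B3gnt8 (0.967), and Cx3cr1 by Mthfd1l (0.984), Lyl1 (0.972) and C1galt1 (0.966). Among the 6 themselves, Nr4a1 and Ace were the closest pair (0.91) and Ccr2 and Treml4 the most opposed (-0.70). These correlations describe 9 points that share libraries and were picked as the highest of many.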

How the data were processed

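RNA of 29 sorted cell samples was read by the Ion AmpliSeq Transcriptome mouse panel. The authors deposited RPM for 23930 genes, counted with a Torrent Suite plug-in, and the build was mm10 per the submitters' processing notes. Whole reads were recovered for 100.0% of the values within 0.1 reads, and floors from them cover counting error only.

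For each comparison, relative log expression factors of its libraries were used to scale RPM. Genes that reached 1 RPM in 3 or more of those libraries were fitted as log2(value + 1) with lmFit and eBayes(trend) of limma 3.58.1 in R 4.3.3. Tests were two-sided, with Benjamini-Hochberg adjustment over all tested genes. The fits were tested on simulated data. edgeR 4.0.16 and DESeq2 1.42.0 on recovered reads, leaving out single libraries and other settings were alternatives.

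The 6 genes and all gene lists were chosen with earlier results of these data known, and list genes are named as the called genes of largest fold with at least 10 RPM. Likeness is by the 3 highest correlations. Same-numbered replicates deviated together (correlations of 0.27 to 0.53) in Rnaset2-/- liver and, at 0.12 to 0.44, in wild-type Ly6C-low cells of the 2 organs, and at 0.13 to 0.38 between Rnaset2-/- hepatic Ly6C-low and Kupffer cells, which are different mice. Whether they share animals is not stated.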

Additional observations from a re-analysis of the deposited data

Results flagged for a closer look

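The effect of genotype differed between groups by a test of the difference itself for 9 results of the 6 genes, all in limma. Between splenic subsets it was lower in Ly6C-low than in Ly6C-high cells for Spn (-1.13, adjusted p = 0.0194) and Treml4 (-1.19, adjusted p = 0.042). Between hepatic subsets it was lower in Ly6C-low cells for Ccr2 (-2.99, adjusted p = 0.0229). Between organs it was lower in liver for Ccr2 (-1.31, adjusted p = 0.00474) and Nr4a1 (-2.81, adjusted p = 0.02) in Ly6C-high cells. In Ly6C-low cells it was lower in liver for Ccr2 (-2.50, adjusted p = 0.0474), Cx3cr1 (-1.87, adjusted p = 0.0333), Nr4a1 (-3.42, adjusted p = 0.00133) and Ace (-3.39, adjusted p = 0.0161). For the results between hepatic subsets and between organs, effects of genotype and of sex cannot be told apart.

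In the 2 groups of 4 libraries, no gene had a library whose gap to the next exceeded Dixon's 95% limit, and groups of 3 were not examined.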

How the results depend on the processing

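Of 96 log2 differences of the 6 genes, 47 were called, 0 of these turned in sign under any alternative and 29 kept their call under all that were run. Leaving out the scaling factors moved the median of all genes by -0.48 (Rnaset2-/- liver Ly6C-low against Kupffer cells) to 0.53 (Kupffer cells against wild-type liver Ly6C-low). The alternative that summed Ly6c1 and Ly6c2 was not run. Leaving out replicate 1 of both Rnaset2-/- groups of an organ was chosen after seeing the data. For the changes below, the cause was not tested.

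Fewer or more of the 6 genes were called under some settings. One fit of all 29 libraries called 2 in the wild-type liver subsets, 4 in the Rnaset2-/- liver subsets, 0 by genotype in splenic and 2 in hepatic Ly6C-high cells, 1 between organs in Ly6C-low cells, and 0, 3 and 1 for the effect of genotype between splenic subsets, between hepatic subsets and between organs in Ly6C-high cells. The shares of all genes called were 6.89, 27.2, 8.19, 40.3, 32.4, 5.49, 16.6 and 28.5% in this order. Without the filter on low values these were 0 by genotype in hepatic Ly6C-high cells and 1, 0, 1 and 2 for the genotype effects between splenic subsets, hepatic subsets, organs in Ly6C-high and organs in Ly6C-low cells, with 17.1, 5.77, 4.77, 18.7 and 16.8% of all genes. RPM as deposited called 1 between organs in Ly6C-high cells (42.8% of all genes). In Rnaset2-/- liver, DESeq2 called 3 between subsets (24.0%), and the replicate block 3 (28.8%). The genotype effect between hepatic subsets was called for 3 by DESeq2 (15.1%) and 2 by edgeR (8.63%). Without replicate 1 of both Rnaset2-/- liver groups, 4 were called between subsets (26.6%) and 5 between genotype effects (21.3%). Beyond the calls named beside the results, the block ended that of Nr4a1 in Rnaset2-/- spleen (1.34, adjusted p = 0.082), where the numbers did not pair.

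Values that turned were uncalled with all libraries, and Ace (0.86) and Cx3cr1 (0.65) by genotype in hepatic Ly6C-high cells were called after turning, without Rnaset2-/- replicate 1. On RPM as deposited they were Nr4a1 by genotype in splenic Ly6C-high cells (-0.09), Cx3cr1 by genotype in hepatic Ly6C-high cells (0.24), Cx3cr1 between organs in Ly6C-high cells (-0.20) and the genotype effects of Nr4a1 between splenic subsets (0.06) and of Spn between organs in Ly6C-high cells (0.37). With DESeq2 and edgeR they were Nr4a1 by genotype in splenic Ly6C-low cells (0.13 and 0.12), Cx3cr1 (0.20 and 0.23) and Ace (0.30 and 0.32) by genotype in hepatic Ly6C-high cells, and the genotype effects of Nr4a1 between splenic subsets (0.08 and 0.11) and of Spn between organs in Ly6C-high cells (0.11 and 0.17). The genotype effect of Ace between organs in Ly6C-high cells was -0.01 with a pseudocount of 0.1 and 0 in one fit. Without both replicates 1 of an organ, Cx3cr1 between Rnaset2-/- splenic subsets was 0.27, Spn between Rnaset2-/- hepatic subsets -0.20 and the Nr4a1 genotype effect between splenic subsets 0.30.

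Leaving out single libraries gave 2 to 5 genes called between Rnaset2-/- splenic and 1 to 3 between Rnaset2-/- hepatic subsets, 0 to 1 by genotype in splenic Ly6C-low and 0 to 6 in hepatic Ly6C-high cells, and 0 to 3, 0 to 5 and 2 to 4 for the genotype effect between splenic subsets, hepatic subsets and organs in Ly6C-low cells. The share of all genes called moved in these fits as well. It ranged from 16.7 to 35.5% between Rnaset2-/- splenic subsets and from 16.3 to 37.1% by genotype in hepatic Ly6C-high cells. For the genotype effect it ranged from 5.51 to 19.3% between hepatic subsets and from 19.5 to 30.4% between organs in Ly6C-low cells. It fell to 4.24% between Rnaset2-/- hepatic subsets and to 1.42% by genotype in splenic Ly6C-low cells. Cx3cr1 ranged from -0.51 to 0.14 between Rnaset2-/- splenic subsets. Between Rnaset2-/- hepatic subsets, Spn ranged from -0.31 to 0.53 and Nr4a1 from -1.49 to 0.11. By genotype, splenic Ly6C-low cells gave Nr4a1 -0.26 to 0.33, Cx3cr1 -0.51 to 0.16 and Treml4 -0.30 to 0.11. Hepatic Ly6C-high cells gave Cx3cr1 -0.43 to 0.65, Ace -1.33 to 0.86 and Treml4 -0.09 to 0.85, and hepatic Ly6C-low cells Spn -0.19 to 0.12. Between organs, Cx3cr1 ranged from -0.02 to 0.20 in Ly6C-high and from -0.35 to 0.10 in Ly6C-low cells. The genotype effects ranged from -0.31 to 0.28 for Nr4a1 between splenic subsets, from -0.56 to 0.37 for Treml4 and -1.60 to 0.02 for Nr4a1 between hepatic subsets, and from -0.36 to 0.48 for Spn, -0.73 to 1.45 for Ace and -0.78 to 0.29 for Cx3cr1 between organs in Ly6C-high cells.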

Other observations

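In hepatic Ly6C-low cells, 42.7% of all tested genes were called by genotype. Of 5 tested genes of the TREM family and its adaptor Tyrobp, Treml4 not counted, 4 were lower and 1 higher in Rnaset2-/- than in wild-type hepatic Ly6C-low cells. Among them Trem1, an amplifier of myeloid inflammation, held 317 to 485 RPM in wild-type and 1.53 to 7.70 RPM in Rnaset2-/- hepatic Ly6C-low cells (log2 fold change -6.64, adjusted p = 2.79e-05). In the same comparison Treml4 was not called and Treml2 was higher, at 2.36 (adjusted p = 0.000541). Trem2, a lipid receptor of macrophages, was lower in Ly6C-low than in Ly6C-high cells of wild-type spleen, at -1.72 (adjusted p = 6.1e-07), and of wild-type liver, at -0.96 (adjusted p = 0.0439), the direction opposite to Treml4. Of the Ly6 family on chromosome 15, Ly6i was higher in Rnaset2-/- than in wild-type splenic Ly6C-high cells, at 2.02 (adjusted p = 1.71e-06), with 110.1 to 120.4 against 27.0 to 32.1 RPM. Close copies within this family can share reads, so its values are uncertain.

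Of 18 tested patrolling monocyte genes, 3 were lower and none higher by genotype in splenic Ly6C-low cells, and 8 were lower and 3 higher in hepatic ones. Of all tested genes, 8.35% and 42.7% were called in these comparisons. Cd36, a scavenger receptor, held 41.5 to 181 against 522 to 604 RPM in splenic and 15.4 to 33.2 against 388 to 429 RPM in hepatic Ly6C-low cells, lower in both (-2.32, adjusted p = 0.0199, and -4.02, adjusted p = 4.05e-05).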
